A study of Mus musculus with 7 samples.

Results

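The mouse genes that encode the proteins of the cytosolic ribosome were examined in pancreatic islets of second-generation (F2) males. Members were chosen by symbol from the genes of the expression files: protein-coding genes named Rpl or Rps with a number, together with Rplp0, Rplp1, Rplp2 and Rpsa, without the Rps6k kinases and without the copies named as pseudogenes (-ps). The rule gave 86 of 21899 genes, and 83 of them (96.5%) had a mean of at least 10 counts in the libraries used. The 83 were 43 proteins of the large subunit, 3 of its stalk, 31 of the small subunit, 5 paralogues and Rps19bp1, which encodes a binding partner of Rps19 and no ribosomal protein. The members lie on 19 chromosomes.

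Islets are the endocrine part of the pancreas, and most of their cells are insulin-secreting β-cells. Control-F2 males descended through the paternal line from C57BL/6J founder dams (F0) given benzyl benzoate and corn oil in late pregnancy, and AE-F2 males from dams given the androgen dihydrotestosterone in that vehicle (androgen exposure, AE). In both groups, F1 sons that received no further treatment were bred with wild-type females, and the age of the F2 males behind the RNA-seq is not given in the sources used here. The labels list 3 control-F2 and 4 AE-F2 samples. The values below are from 1 library per group, control-F2 replicate 1 and AE-F2 replicate 4, and the other 5 libraries were not analysed here. No difference below has a replicate check or a test, and each interval covers counting error only.

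A eukaryotic ribosome holds a single copy of nearly every one of these proteins, built around ribosomal RNA: the small subunit reads the mRNA, the large subunit joins the amino acids, and the stalk, which carries its proteins P1 and P2 in pairs, recruits the translation factors. The mRNAs of these genes are long-known housekeeping transcripts that typically start with a C followed by a run of pyrimidines, the 5′ terminal oligopyrimidine (TOP) tract, through which the kinase mTORC1 and the RNA-binding protein Larp1 set their translation. Secretory cells such as β-cells depend on this supply, since they make large amounts of insulin.

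The start sites of members that the results below turn on are shown so that the start of the RNA can be read beside its level. Each line gives the 10 bases before and the 20 bases from the first start that RefSeq lists for the gene (build GRCm38.p6), 5′ to 3′ on the gene's strand. Capitals mark a C followed by at least 4 bases that are each C or T, where one begins within 5 bases of that start. The order is Rps6, Rpl38, Rpl12, Rpl37, Rps28, Rpl4, and then the paralogue pairs Rpl22 with Rpl22l1 and Rps27 with Rps27rt.
Rps6 (chr4:86857348-86857377, minus strand): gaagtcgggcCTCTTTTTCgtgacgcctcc
Rpl38 (chr11:114668570-114668599, plus strand): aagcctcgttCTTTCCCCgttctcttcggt
Rpl12 (chr2:32961702-32961731, plus strand): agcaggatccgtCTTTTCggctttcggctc
Rpl37 (chr15:5116603-5116632, plus strand): cctgggcggaagcttatccacaggaagtgg
Rps28 (chr17:33824543-33824572, minus strand): cgcgtgcggtctcgcgagagcgaaagtgag
Rpl4 (chr9:64173377-64173406, plus strand): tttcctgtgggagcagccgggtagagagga
Rpl22 (chr4:152325716-152325745, plus strand): cctgggaaaagcaatagctggccgatcgtt
Rpl22l1 (chr3:28805498-28805527, plus strand): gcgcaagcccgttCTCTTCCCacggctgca
Rps27 (chr3:90213629-90213658, minus strand): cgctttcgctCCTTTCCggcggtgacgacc
Rps27rt (chr9:114982720-114982749, minus strand): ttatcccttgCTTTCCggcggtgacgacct

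Of the 83 members, 63 (75.9%) were in the RefSeq promoter table, which covers 250 bases before to 50 after a start. The pyrimidine run began exactly at the listed start in 13 of these 63 (20.6%), against 2.49% of all 27025 promoters, and within 5 bases of it in 29 (46.0%), against 18.5%. The letters CGGAAG, the core of ETS factor sites, stood on either strand of the promoter in 43 members (68.3%), against 17.2% of all promoters. AAGATGG, the core of YY1 sites, stood on either strand in 9 members (14.3%), against 6.48%. The motifs can overlap through their shared AAG. Matches describe the letters only, and a gene without the run, such as Rpl37 or Rps28, lacks it in this window around the first listed start.

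The control-F2 library held 16285881 counts and the AE-F2 library 21278511, a ratio of 1.31, so the counting error is smaller in the AE-F2 library. Insulin, glucagon and the other islet endocrine markers were abundant in both: the 7 genes took 23.1% of all counts in control-F2 and 23.8% in AE-F2. Their ratios differed: Gcg, the glucagon gene of α-cells, had 261338 and 467676 counts (log2 ratio 0.46) and Iapp, the amyloid peptide gene, 0.23, while Ins1 was at 0.07 and Ins2 at −0.05. Markers of other cells differed between the libraries. All 8 B and plasma cell markers were higher in the AE-F2 library (255 summed counts in control-F2, 8285 in AE-F2, log2 ratio 4.64), as was the sum of the 6 T cell markers (11 and 110 counts, with Cd3d, Cd3e and Cd3g at 0 in control-F2). Of the 4 mesenchyme markers, Col1a1, Col1a2 and Col3a1 were higher and Pdgfrb had 406 and 549 counts (0.05, −0.14 to 0.24), with a log2 ratio of the summed counts of 0.71, and all 6 acinar markers were lower (−0.44). Of the 5 macrophage markers, Lyz2 was higher (112 and 571 counts, log2 ratio 1.96) and C1qa lower (592 and 647 counts, −0.26), and the median of the list was 0.01. The part of these cells, α-cells included, in the ribosomal protein values was not tested. In bulk tissue, a different number of cells of a type and a different amount of RNA per cell cannot be told apart.

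Ribosomal protein mRNA stood slightly higher in AE-F2 islets than in control-F2 islets across nearly the whole set of genes, in the single library of each group. Of the 83 members, 76 had a log2 ratio above 0, against 49.7% of all 13627 genes compared, and 7 had one below 0. The median log2 ratio was 0.14, a fold of 1.10, with an interquartile range of 0.08 to 0.21 and a full range of −0.04 to 0.68, while the median over all genes compared was −0.001. The counting interval lay above equality for 63 members (all genes, 13.2%) and below it for 0 (all genes, 13.7%). Few members differed by much: 6 were at least 25% higher (7.23% of members, all genes 11.3%) and 0 were at least 20% lower, the same fold in the other direction (all genes 6.92%). No test stands behind these counts.

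The log2 ratios of the members had a standard deviation of 0.12. It was 0.58 over all genes compared, most of which had far fewer counts, 0.19 over the 3397 non-members with a mean of at least 1000 counts, and 0.14 over the 327 of these with a coding part under 600 bases. Summed over the members, the counts were 235072 in control-F2 and 333490 in AE-F2. These are 1.44% (95% Wilson interval 1.438 to 1.449) and 1.57% (1.562 to 1.573) of their libraries, and the log2 ratio of the sums was 0.12 (0.11 to 0.13). The 10 members of highest counts held 28.9% of this sum in control-F2 and 28.4% in AE-F2. With trends on transcript length and GC content over all genes removed, the median log2 ratio of the members was 0.06. Then 70 members were above 0 (all genes 51%), the interval lay above equality for 37 (all genes 12.9%) and below it for 4 (all genes 11.5%), 2 members were at least 25% higher (all genes 11.1%) and 0 at least 20% lower (all genes 6.44%). Without that removal, 1 member was at least 1.5-fold higher (all genes 6%) and 0 were at least 2-fold higher (all genes 3.16%).

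**Figure D1:**
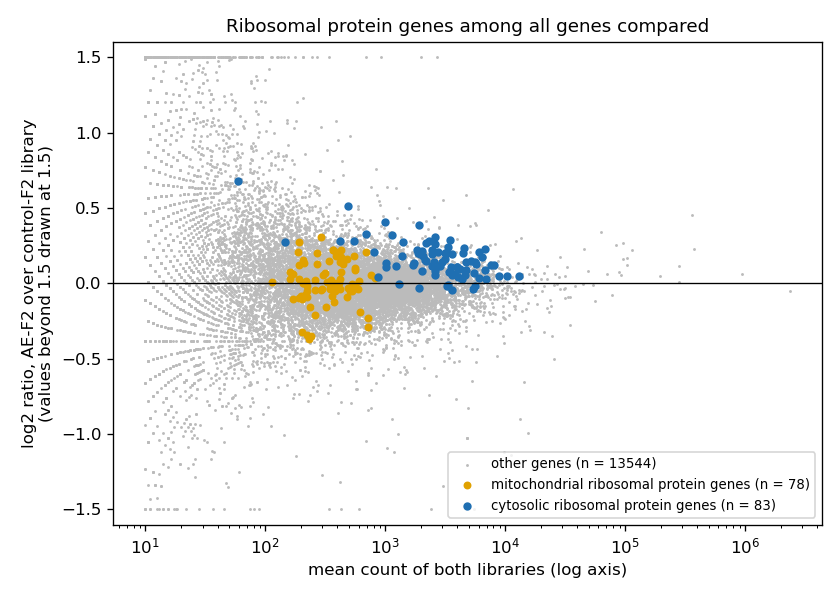
Log2 ratio between the AE-F2 and the control-F2 library (vertical axis, values beyond 1.5 drawn at 1.5) against the mean count of both libraries (horizontal log axis) for 83 cytosolic ribosomal protein genes (blue), 78 mitochondrial ribosomal protein genes (orange) and the other genes (grey). The blue points form a narrow band with a median of 0.14, the orange ones centre on 0.005.

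Among genes that are no member but have a mean of at least 1000 counts, 3397 in all, the median log2 ratio was −0.02 and 42.1% were above 0. Of these, 26 (0.765%) were at least 25% higher and 89 (2.62%) at least 20% lower. In the 22 of them whose transcript is under 700 bases, the median was 0.15, close to that of the ribosomal protein genes, whose median transcript is 914 bases. They were less uniform: 17 were higher (77.3%, members 91.6%), the interval lay below equality for 3 (members 0), and the standard deviation was 0.24 (members 0.12). In the 76 with a transcript under 1000 bases, the median was 0.09 and 57 were higher. The difference between the members and other short, abundant transcripts was not tested.

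The large subunit had a median log2 ratio of 0.15 over 43 genes, 37 of them higher in AE-F2, and 33 had an interval above equality. With the length and GC trends removed, its median was 0.079. Its 3 highest values belonged to Rpl38, Rpl37 and Rpl39. Rpl38, whose loss in mice disturbs patterning of the skeleton, had 725 counts in control-F2 and 1257 in AE-F2, a log2 ratio of 0.41 (0.28 to 0.54). Rpl37, a zinc-binding protein of the large subunit, had 1420 and 2425 counts (0.39, 0.29 to 0.48). Rpl39, which lines the exit tunnel of the growing chain, had 428 and 678 counts (0.28, 0.10 to 0.46). Rpl41, the shortest of the ribosomal proteins, had 5397 and 8256 counts (0.23, 0.18 to 0.28).

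Rpl5 and Rpl11 bind the 5S rRNA together and, when free, inhibit the p53 ligase Mdm2. Rpl5 had 4806 counts in control-F2 and 7240 in AE-F2 (log2 ratio 0.21, 0.15 to 0.26), and Rpl11 had 2590 and 3776 (0.16, 0.09 to 0.23). Rpl23a, the docking site of chaperones at the tunnel exit, had 3592 and 5511 counts (0.23, 0.17 to 0.30). Rpl3, next to the centre that forms peptide bonds, had 5228 and 7713 counts (0.18, 0.13 to 0.23). All 4 of these intervals lay above equality. Rpl4, which extends into the exit tunnel, had the most counts of all members, 11193 and 15087, and a log2 ratio of 0.05 (0.01 to 0.08).

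The large subunit genes Rpl12, Rpl8, Rpl13, Rpl10 and Rpl34 had log2 ratios just below 0. Rpl12, at the base of the stalk, had 3183 counts in control-F2 and 4033 in AE-F2 (−0.04, −0.11 to 0.03). Rpl8, a protein near the peptide bond centre, had 4791 and 6104 counts (−0.03, −0.09 to 0.02), and Rpl13 had 4926 and 6353 (−0.02, −0.07 to 0.04). Rpl34 had 1135 and 1475 counts (−0.01, −0.12 to 0.11). Rpl10, among the last proteins to join the large subunit, had 2924 and 3788 counts (−0.01, −0.08 to 0.06). Each of these intervals included equality, so at this depth none of these 5 could be told from an equal level.

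The 3 stalk genes were all higher in the AE-F2 library, with a median log2 ratio of 0.12. Rplp0, which anchors the stalk to the ribosome, had 8885 counts in control-F2 and 12019 in AE-F2 (0.05, 0.01 to 0.09). Rplp1 had 2264 and 3208 counts (0.12, 0.04 to 0.20), and Rplp2 had 1108 and 1638 (0.18, 0.07 to 0.29). Rplp1 and Rplp2 encode the paired acidic proteins that bind to Rplp0. All 3 intervals lay above equality. With the length and GC trends removed, the median of the stalk genes was 0.031.

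The small subunit had a median log2 ratio of 0.12 over 31 genes, 30 of them higher in AE-F2, with the interval above equality for 23. With the length and GC trends removed, the median was 0.039. Rps28 and Rps29, both short proteins, were the small subunit genes at least 25% higher: Rps28 had 526 counts in control-F2 and 860 in AE-F2 (0.33, 0.17 to 0.49). Rps29, a zinc-binding protein, had 868 and 1418 counts (0.32, 0.20 to 0.45). Rps23, which reaches into the decoding centre, had 2694 and 4294 counts (0.29, 0.22 to 0.36). Rps16, whose tail touches the tRNA in the P site, had 1804 and 2861 counts (0.28, 0.20 to 0.37). The intervals of these 4 genes overlapped each other.

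Small subunit genes well known from signalling and disease had log2 ratios nearer 0 than these 4. Rps6, the protein that S6 kinases phosphorylate after mTORC1 activation, had 6282 counts in control-F2 and 8910 in AE-F2 (0.12, 0.07 to 0.17). Rps19, the gene most often mutated in Diamond-Blackfan anaemia, had 1022 and 1443 counts (0.11, −0.002 to 0.23). Rps14, lost in the 5q− form of myelodysplasia, had 3777 and 5031 counts (0.03, −0.03 to 0.09). Rps3, at the mRNA entry channel, had 3500 and 4877 counts (0.10, 0.03 to 0.16). Of these 4 genes, Rps6 and Rps3 had intervals above equality.

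Rps27a, which is made as a fusion with ubiquitin, had 2922 counts in control-F2 and 4112 in AE-F2 (log2 ratio 0.11, 0.04 to 0.18). Rpsa, also known as the laminin receptor precursor, had 7509 and 10160 counts (0.05, 0.01 to 0.10). Rps4x, on the X chromosome, had 4617 and 6642 counts (0.14, 0.09 to 0.20). Rps13 was the 1 small subunit gene with a log2 ratio below 0, with 1674 and 2134 counts (−0.03, −0.13 to 0.06), an interval that included equality.

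**Figure D2:**
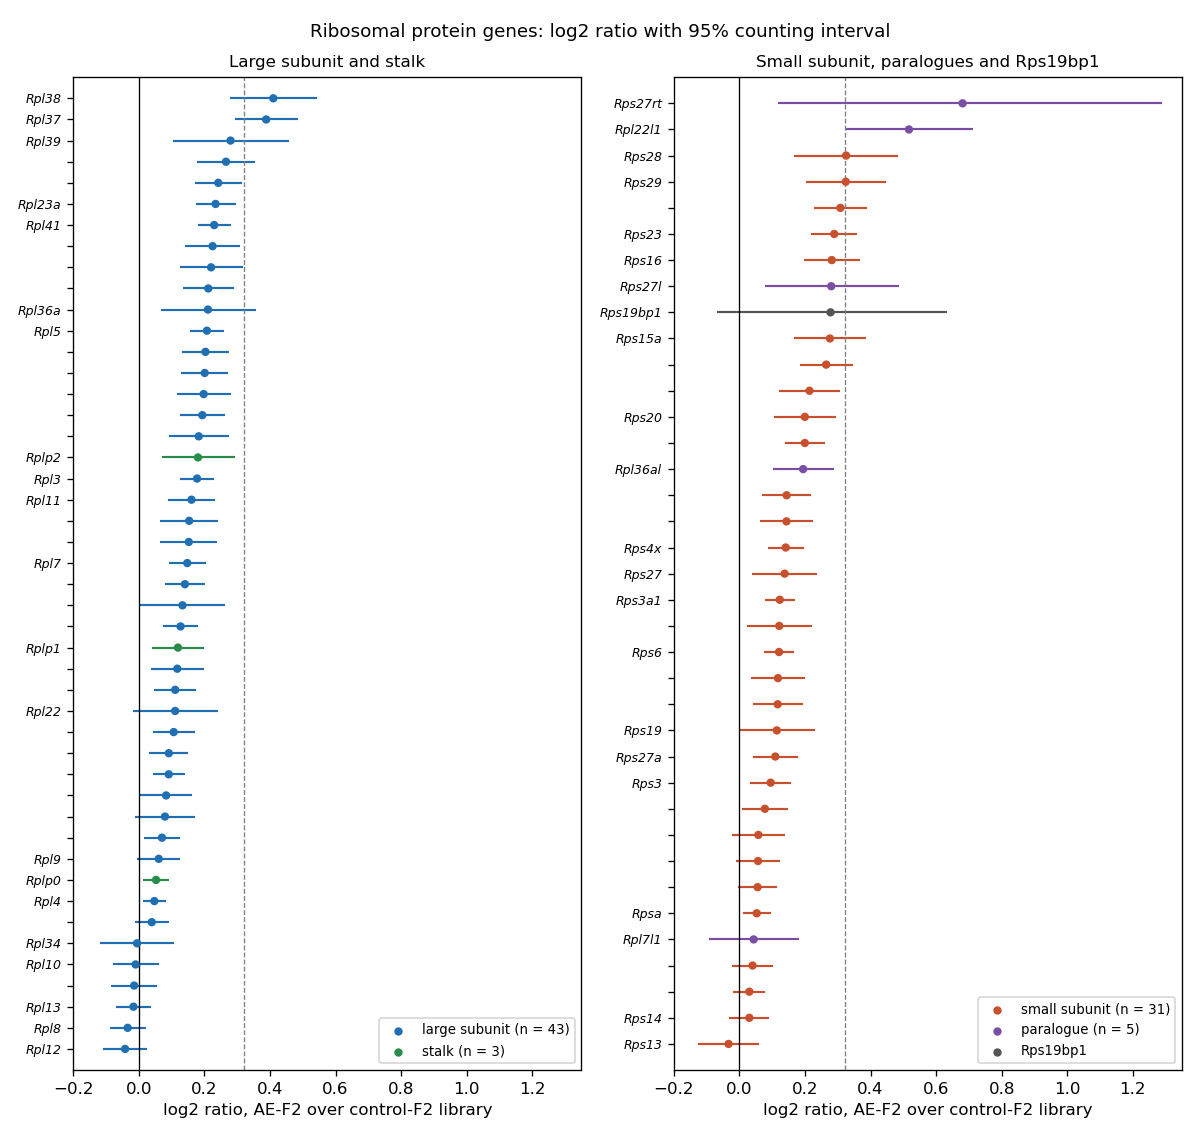
Log2 ratio, AE-F2 divided by control-F2 (horizontal axis) for each of the 83 members with its 95% counting interval as a bar, with large subunit and stalk genes on the left and small subunit genes, paralogues and Rps19bp1 on the right; the solid line is equality, the dashed line 25% higher, and genes described in the text are labelled. The points run from −0.04 (Rpl12) to 0.68 (Rps27rt), and 76 of 83 lie to the right of the solid line.

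Paralogues are expressed second copies of a ribosomal protein gene that encode a near relative of the standard protein. Of the 8 that the rule took, 3 had 0 counts in both libraries: Rpl3l, the form of Rpl3 in heart and skeletal muscle, and Rpl10l and Rpl39l, known from the male germ line. A count of 0 allows up to 3 counts, that is 0.184 CPM, counts scaled to a library of 1000000, in control-F2 and 0.141 CPM in AE-F2. Their standard counterparts Rpl3, Rpl10 and Rpl39 were well above that in both libraries, with at least 428 counts. The other 5 paralogues were all higher in AE-F2, with a median log2 ratio of 0.28 (0.15 with the length and GC trends removed), and 4 had an interval above equality.

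Rpl22l1 and its standard counterpart differed in their ratios. Rpl22l1, which in mice is held down by Rpl22, had 341 counts in control-F2 and 637 in AE-F2, or 20.9 and 29.96 CPM (log2 ratio 0.52, 0.33 to 0.71). Rpl22 had 839 and 1182 counts, or 51.5 and 55.6 CPM (0.11, −0.02 to 0.24). The counting intervals of the pair did not overlap, and every deposited value of both was a whole number. The longest coding transcript of Rpl22l1 has 552 bases and 40.6% GC, and that of Rpl22 2051 bases and 49.2% GC. The part of length and GC content in the difference between the pair was not tested. Scaled for length, Rpl22l1 stood at 70.4 TPM in control-F2 and 98.2 TPM in AE-F2, where TPM is the count per length scaled to a sum of 1000000, and Rpl22 at 46.6 and 49.1 TPM. That order depends on the transcript taken: with the shortest principal transcript, Rpl22 stood at 151 and 161 TPM and Rpl22l1 at 52.8 and 74.6 TPM.

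Rps27l, a p53 target closely related to Rps27, had 325 counts in control-F2 and 515 in AE-F2 (log2 ratio 0.28, 0.08 to 0.49), and Rps27 had 1417 and 2034 (0.14, 0.04 to 0.24). Rps27rt, a retrotransposed copy of Rps27, had 38 and 80 counts (0.68, 0.12 to 1.29), the widest interval of all members. Its deposited values were 37.81 and 79.88, not whole, and with those of Rps27 they added up to 1455 in control-F2 and 2114 in AE-F2, whole to within 0.02. Together the pair had a log2 ratio of 0.16 (0.06 to 0.25), and the values of Rps27rt are uncertain, since reads shared by the copies appear to have been divided in the counting. The start sequences of both genes printed above carry the pyrimidine run at the listed start.

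Rpl7l1, a relative of Rpl7, had 749 counts in control-F2 and 1007 in AE-F2 (log2 ratio 0.04, −0.09 to 0.18), and Rpl7 had 4287 and 6195 (0.15, 0.09 to 0.20). Rpl36al, the intronless relative of Rpl36a, had 1551 and 2315 counts (0.19, 0.10 to 0.29), and Rpl36a had 645 and 974 (0.21, 0.07 to 0.36); this pair was picked after its values were seen. Within either pair the intervals overlapped. Rps19bp1, no ribosomal protein, had 113 and 179 counts (0.28, −0.07 to 0.63).

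Rpl10 and a near-identical copy showed the same kind of split. The deposited values of Rpl10 and of the copy Rpl10-ps3, which the rule leaves out, added up to 9640 in control-F2 and 12730 in AE-F2. Rpl10 held 30.3% and 29.8% of these sums, and the log2 ratio of the sums was 0.02 (−0.02 to 0.06). The level of Rpl10 given here is therefore a part of the reads that match it, while its ratio was close to that of the sum. Rpl9 and its copy Rpl9-ps6 summed to 3249 and 4449, of which Rpl9 held 99.2% and 98.6%. In all, 16 of the 83 members (19.3%) had a value that was not whole, against 14.5% of all genes compared, and the 67 members that were whole in both libraries had a median log2 ratio of 0.13.

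The log2 ratio differed along the members by the length of the protein-coding part. Of the 77 standard proteins of the subunits and stalk, the 9 with a coding part under 300 bases had a median log2 ratio of 0.28, with all 9 higher in AE-F2. The 27 with 300 to 450 bases had 0.20, the 19 with 450 to 600 bases 0.11, the 19 with 600 to 900 bases 0.10, and the 3 longer ones, Rpl3, Rpl4 and Rplp0, 0.05. Across the 77 genes Spearman's rho of ratio and coding length was −0.52. This describes genes of the same 2 libraries, which are not independent replicates, and members with a longer coding part also had more counts (rho 0.75 over the 83 members).

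The medians of other abundant genes lay closer together. Among non-members with at least 1000 counts, the 48 with a coding part under 300 bases had a median log2 ratio of 0.01, the 104 with 300 to 450 bases 0.06, the 175 with 450 to 600 bases 0.03, the 368 with 600 to 900 bases 0.01, and the 2697 longer ones −0.03. Spearman's rho over 3392 of these genes was −0.22. These classes match the members by coding part only: the 327 genes under 600 coding bases had a median transcript of 2022 bases, against 914 for the members. The 22 abundant non-members with a transcript under 700 bases had a median log2 ratio of 0.15, as given above. GC content went with the ratio at −0.26 both in the 83 members and in 3394 of these genes. How far length, GC content or the making of the library set the ratios of the members was not tested beyond the removal of trends given above.

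**Figure D3:**
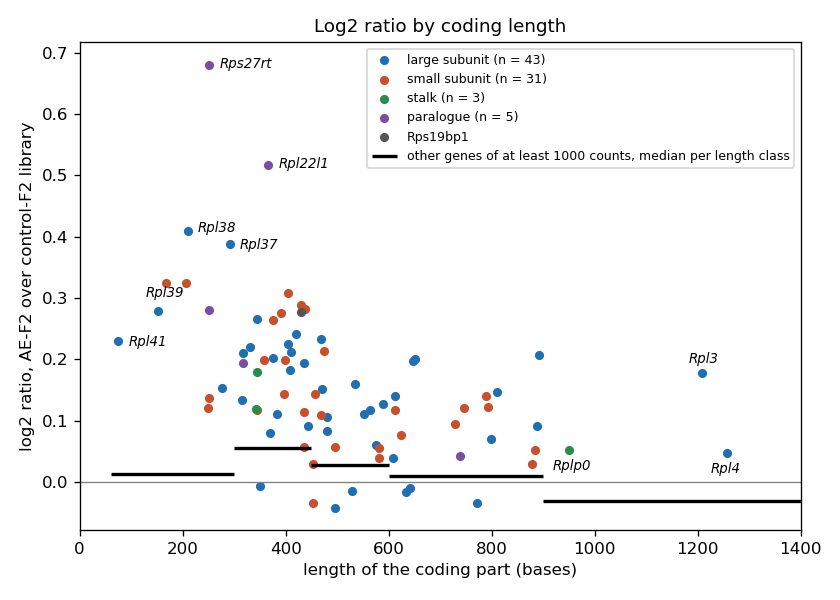
Log2 ratio, AE-F2 divided by control-F2 (vertical axis) against the length of the coding part in bases (horizontal axis) for the 83 members, coloured by role, with the median of other genes of at least 1000 counts per length class as black lines. Members under 300 bases, such as Rpl38, Rpl37 and Rpl39, lie highest, while Rpl3, Rpl4 and Rplp0 at the long end have a median of 0.05.

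Levels of different members were compared per length, as TPM over the longest protein-coding transcript. The 77 standard proteins had a median of 297 TPM in control-F2 and 329 TPM in AE-F2, against 12.6 and 12.2 TPM over all genes compared. In control-F2, 17 of them were among the 100 highest genes and 66 among the 500 highest, and in AE-F2 20 and 67 were. The large subunit had a median of 284 TPM in control-F2 and 302 TPM in AE-F2, the small subunit 343 and 378 TPM, and the 5 measured paralogues 64.4 and 76.2 TPM. The order of the 77 genes was nearly the same in both libraries, with a Spearman's rho of 0.989 across genes.

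Rpl41 stood highest as the reads were divided, at 1056 TPM in control-F2 and 1207 TPM in AE-F2. Rpl10 stood at 390 and 377 TPM and its copy Rpl10-ps3, which shares its reads, at 996 and 991 TPM, so the sum of the pair would stand above Rpl41. Rpl4 followed in control-F2 with 829 TPM (835 in AE-F2), then Rps6 with 815 (864), Rps3a1 with 783 (831), Rplp0 with 745 (753) and Rpl23a with 731 (838). These 6 genes thus spanned both subunits and the stalk. The lowest levels were those of Rps27rt (11.6 and 18.2 TPM), Rps19bp1 (15.4 and 18.2 TPM), Rps15a (23.9 and 28.2 TPM), Rpl7l1 (32.7 and 32.9 TPM), Rps20 (46.4 and 52.0 TPM) and Rpl22 (46.6 and 49.1 TPM).

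Some of the low levels rest on the transcript taken for the length. The longest coding transcript of Rps15a has 5179 bases and that of Rps20 3706 bases, against a median of 914 bases over the members. With the shortest principal transcript, Rps15a, a small subunit protein, stood at 145 TPM in control-F2 and 173 TPM in AE-F2, while Rps20 stood at 34.8 and 39.5 TPM. The log2 ratios do not use the length: Rps15a had 1085 and 1714 counts (0.28, 0.17 to 0.39), and Rps20 had 1510 and 2262 (0.20, 0.10 to 0.29). Rps3a1 had 6714 and 9538 counts (0.12, 0.08 to 0.17).

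**Figure D4:**
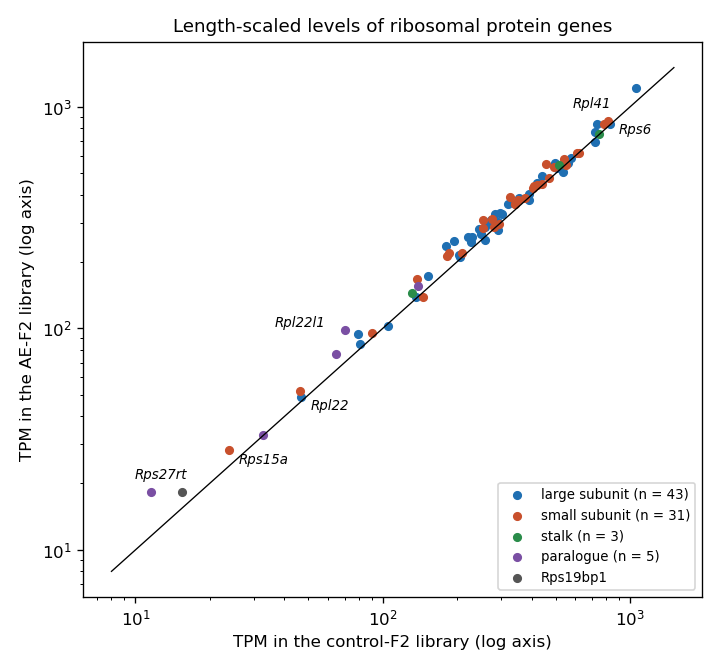
Length-scaled level in TPM of each measured member in the AE-F2 library (vertical log axis) against the control-F2 library (horizontal log axis), coloured by role, with the line of equal levels. The points follow the line from Rps27rt (11.6 and 18.2 TPM) to Rpl41 (1056 and 1207 TPM), and Rpl22l1 lies above it.

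Ribosomal proteins whose symbols fall outside the rule include Rack1 and Fau. Rack1, a signalling scaffold on the small subunit, had 4414 counts in control-F2 and 5857 in AE-F2 (log2 ratio 0.02, −0.03 to 0.08). Fau, a fusion of a ubiquitin-like protein with a small subunit protein, had 1623 and 2271 counts (0.10, 0.01 to 0.19). Both ratios lay within the range of the 83 members.

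The ribosome of mitochondria is a separate machine with its own nuclear-encoded proteins, and the median ratio of their genes lay near 0. All 78 mitochondrial ribosomal protein genes listed were measured, with a median log2 ratio of 0.005. In AE-F2, 43 of them were higher (55.1%, all genes 49.7%) and 35 lower. None was at least 25% higher (all genes 11.3%) and 3 were at least 20% lower (3.85%, all genes 6.92%). Summed, they held 0.149% of the counts in either library. Mrpl27 had 230 and 232 counts (−0.37, −0.64 to −0.10) and Mrps31 had 223 and 361 (0.31, 0.07 to 0.56), the ends of their range. These genes have lower counts than the cytosolic set, with a median half-width of the interval of 0.22 against 0.08, so small differences are less visible in them.

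By the median, other mRNAs known to carry a TOP tract came nearest to the ribosomal protein genes among the lists of the translation machinery. Of 21 measured, 18 were higher in AE-F2, with a median log2 ratio of 0.10. By the log2 ratio of summed counts, ribosome biogenesis factors (0.06) lay nearer to the members (0.12) than these mRNAs did (0.05). The lists share genes, among them Npm1. Eef1a1, the factor that brings tRNA to the ribosome, had 60117 and 81856 counts (0.06, 0.05 to 0.08), and Tpt1, a growth-linked protein, had 10491 and 15064 (0.14, 0.10 to 0.17). Eef2, the translocation factor, was lower, with 31481 and 38563 counts (−0.09, −0.11 to −0.07). Vim, an intermediate filament protein of mesenchymal cells, had 208 and 574 counts (1.08, 0.85 to 1.32), and the collagen genes among the mesenchyme markers were also higher.

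Initiation factors had a median log2 ratio of 0.03 over 35 genes, 23 of them higher. Of the 35, 0 were 25% higher (all genes 11.3%) or 20% lower (all genes 6.92%). Eif4g2 had 15368 and 20155 counts (0.01, −0.02 to 0.04), and Eif3m, a subunit of the factor that binds the small subunit, had 2289 and 3442 (0.20, 0.13 to 0.28). Elongation and termination factors had a median of 0.06 over 15 genes, 11 of them higher. Eef1a2, the second form of Eef1a1, had 321 and 549 counts (0.39, 0.19 to 0.59), the 1 gene of that list at least 25% higher (6.67%, all genes 11.3%).

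Factors that build ribosomes had a median log2 ratio of 0.08 over 48 genes, 31 of them higher. Of the 48, 2 were at least 25% higher (4.17%, all genes 11.3%) and 1 at least 20% lower (2.08%, all genes 6.92%). Ncl, the nucleolar protein nucleolin, had 4221 and 5958 counts (0.11, 0.06 to 0.17). Npm1, which carries ribosomal subunits out of the nucleolus, had 2299 and 3569 (0.25, 0.17 to 0.33). Bop1, needed to process the RNA of the large subunit, had 443 and 458 (−0.34, −0.53 to −0.14). The machinery that transcribes ribosomal RNA, RNA polymerases I and III and their factors, had a median of 0.03 over 22 genes, 15 of them higher. Chaperones and importers of ribosomal proteins had a median of 0.01 over 17 genes, 11 of them higher.

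Regulators of TOP mRNAs and of mTORC1 had a median log2 ratio of −0.05 over 32 genes, with 21 lower and 11 higher in AE-F2. The interval lay below equality for 8 (25%, all genes 13.7%) and above it for 3 (9.38%, all genes 13.2%). Of the 32, 2 genes were at least 20% lower (6.25%, all genes 6.92%) and 0 at least 25% higher (all genes 11.3%). Eif4ebp1, a repressor of initiation that mTORC1 inactivates, had 263 and 205 counts (−0.74, −1.01 to −0.47), and Ddit4, a stress-induced inhibitor of mTORC1 named after its values were seen, had 842 and 672 (−0.71, −0.86 to −0.56). Castor2 had 4035 and 6097 counts (0.21, 0.15 to 0.27). Factors known to transcribe ribosomal protein genes had a median of −0.04 over 14 genes, 8 of them lower. The interval lay above equality for 2 of these factors (14.3%, all genes 13.2%) and below it for 2 (14.3%, all genes 13.7%). Myc, a general activator of ribosome production, had 220 and 201 counts (−0.51, −0.80 to −0.23), while its relative Mycl had 7 and 23 counts (1.26, 0.07 to 2.80). Yy1 had 1621 and 2121 counts (0.00, −0.09 to 0.10).

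**Figure D5:**
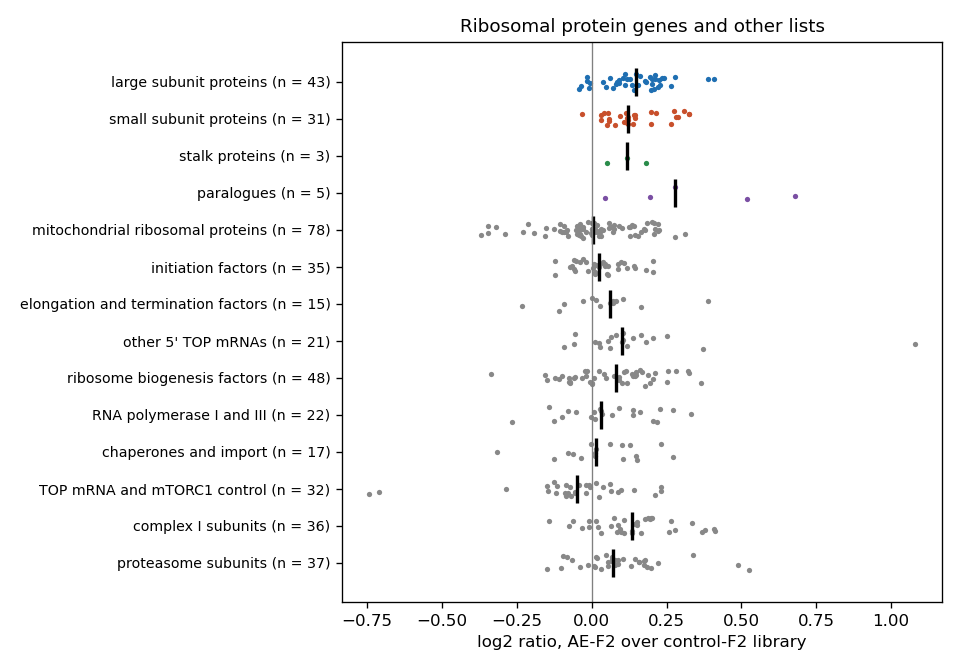
Log2 ratio, AE-F2 divided by control-F2 (horizontal axis) for the members by role (coloured) and for other gene lists (grey), each point a gene and each black bar the median of its list. The bars of the large subunit (0.15) and small subunit (0.12) lie right of that of the mitochondrial ribosomal proteins (0.005), and the bar of the TOP mRNA and mTORC1 regulators lies at −0.05.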

How the data were processed

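Islet mRNA was enriched with oligo(dT) and sequenced. The authors filtered reads and aligned them with HISAT2, per their methods, while the submitters' processing notes name Bowtie2, RSEM and DESeq2; the genome build and annotation are not given in the sources used here. The deposited values are estimated counts per gene, unscaled. Symbols, lengths and coding parts came from GENCODE M21.

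Counts were rounded and scaled with TMM (edgeR 4.0.16, R 4.3.3). A minimum mean of 10 counts left 13627 genes. Log2 ratios (AE-F2 divided by control-F2) used a pseudocount of 0.5 counts, and the 95% Clopper-Pearson interval of the part of a gene's reads found in AE-F2 (scipy 1.17.1) was converted to an interval of the ratio. Reads copied by PCR are no separate molecules, and the intervals and floors therefore cover counting error only. With 1 library per group no test was run. The steps were tested on simulated data.

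The members and lists were chosen with earlier results of these data known. Genes were named by a rule: the highest and lowest levels and ratios, set members, paralogues, genes outside the rule, and the most abundant and extreme genes of each list. Some genes that the rule covers are not reported here. Lists were the cell markers, mitochondrial ribosomal proteins, TOP mRNAs, translation factors, biogenesis, rRNA transcription, chaperones, TOP and mTORC1 regulators, transcription factors, quality control, snoRNA hosts, complex I and the proteasome, the last 2 added after the data were seen. Alternatives were other scalings, minimum counts, pseudocounts, fold thresholds, member sets and transcript lengths, thinning, unrounded counts and removed length and GC trends.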

Additional observations from a re-analysis of the deposited data

How the results depend on the processing

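With smooth trends on transcript length and GC content removed, the median log2 ratio was 0.062 for the members, 0.057 for the standard proteins, 0.039 for the small subunit, 0.031 for the stalk and 0.15 for the paralogues; 2 members were at least 25% higher, 13 had a ratio below 0, and the interval lay above equality for 37 and below it for 4. Of the members whose interval had lain above equality, 3, named after their values were seen, turned direction there: Rps21 (−0.054), Rpl37a (−0.012) and Rps26 (−0.010), and the ratios of 32 others moved by more than the half-width of their own counting interval. The cause was not tested. At 1.5-fold 1 member was higher (all genes 6%), and at 2-fold 0 were (all genes 3.16%). The median level of the standard proteins in AE-F2 was 307 TPM with the shortest principal transcript, an alternative added after the data were seen, and 294 TPM with the longest transcript of any kind. Under the other scalings, minimum counts, a pseudocount of 5, thinning, unrounded counts and other member sets, the median of the members stayed between 0.13 and 0.15, and no member with an interval off equality turned direction. No replicate could be left out, since each group had 1 library. No paired analysis was possible, since neither the labels nor the paper pair control-F2 with AE-F2 animals. The spread between animals was not measured, and at these depths the interval of a member typically spans 0.08 to either side.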

Other observations

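Other large complexes of many small subunits were looked at after the data had been seen. Complex I, the first enzyme of the respiratory chain, had a median log2 ratio of 0.13 over 36 subunit genes, 30 of them higher in the AE-F2 library. Of the 36, 5 were at least 25% higher (13.9%, all genes 11.3%) and 0 at least 20% lower (all genes 6.92%). Ndufb6 had 244 and 424 counts (0.41, 0.18 to 0.65). The median transcript of these genes is 944.5 bases, near the 914 of the ribosomal protein genes. The proteasome, which degrades ubiquitinated proteins, had a median of 0.07 over 37 genes, 30 of them higher. Psmb9, a subunit of the immunoproteasome, had 69 and 130 counts (0.53, 0.10 to 0.97), and Psmb8, another, had 131 and 240 (0.49, 0.18 to 0.81). Psmb10, also of the immunoproteasome, had 150 and 194 counts (−0.01, −0.33 to 0.30). The B and plasma cell markers were also higher in the AE-F2 library, and the part of these cells in the proteasome values was not tested.

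Sensors of stalled ribosomes and of nucleolar stress had a median log2 ratio of 0.02 over 14 genes, 8 of them higher. Cdkn1a, a cell cycle inhibitor induced by p53, had 555 and 500 counts (−0.53, −0.71 to −0.36), and Map3k20, a kinase that senses colliding ribosomes, had 163 and 303 (0.51, 0.23 to 0.79). Of 10 genes known to host small nucleolar RNAs in their introns, 2 were among the genes of the files, Eef1b2 (2029 and 2965 counts, 0.16, 0.08 to 0.25) and Rack1, given above.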
